A study of Mus musculus with 10 samples.

Results

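Activity-regulated immediate early genes are transcribed within minutes of a neuron being strongly stimulated, and 36 of them were followed here through the hippocampus of DU6 and FztDU mice. They were chosen by name, and a gene was taken up where the array annotation gave its symbol alone for a transcript cluster, the set of probes that reads 1 gene. This gave 38 of the 22206 clusters measured, 1 for each gene except Egr3, which had 1 placed cluster and 2 without a position. DU6 mice come from an outbred stock in which large animals were chosen as parents for many generations, a model of polygenic obesity, and FztDU is the unselected outbred line they were compared with. Whole hippocampi of male mice aged 21 to 22 weeks, 5 of each line, were snap frozen and hybridised to Clariom S Mouse arrays, 1 mouse per array. Neither line carries an engineered allele and no agent was given, so the 2 groups differ by breeding history, and each array is a mouse of its own.

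Calcium that enters a firing neuron activates kinases that reach the nucleus and switch on transcription factors already bound there, among them CREB at the cyclic AMP response element (CRE) and serum response factor at the CArG box. No new protein has to be made first, and for this reason the genes are called immediate early. Some encode further transcription factors (Fos, Egr1, Npas4), some encode phosphatases that shut the signal off again (the Dusp family), and some act at the synapse itself (Arc, Homer1), and in the hippocampus their transcripts serve as markers of recent firing.

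The control sequences of this class could be seen in the promoters. RefSeq promoter windows of the GRCm38.p6 build, each from 250 bases before to 50 bases after a start site, were at hand for 29 of the 36 genes (39 windows) and for 32851 windows in all, and no window was at hand for Egr1, Egr3, Ier2, Dusp4, Sik1, Arc or Nptx2. The 250 bases before the start are shown for 6 genes whose signals moved with Fos or Egr1 in the arrays or that are the standard markers of the class. They run 5′ to 3′ on the strand of the gene, and capitals mark the core of the CRE, TGACG on either strand, and the CArG box.
Fos: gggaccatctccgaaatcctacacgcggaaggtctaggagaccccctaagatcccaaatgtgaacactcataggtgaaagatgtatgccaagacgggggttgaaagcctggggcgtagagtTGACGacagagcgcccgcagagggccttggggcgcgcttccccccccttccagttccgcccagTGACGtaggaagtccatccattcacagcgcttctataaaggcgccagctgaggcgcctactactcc
Dusp1: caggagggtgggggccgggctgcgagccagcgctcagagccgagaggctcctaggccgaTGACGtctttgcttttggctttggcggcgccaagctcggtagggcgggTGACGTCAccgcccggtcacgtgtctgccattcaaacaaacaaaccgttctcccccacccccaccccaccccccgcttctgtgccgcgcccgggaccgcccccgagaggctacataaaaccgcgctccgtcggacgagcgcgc
Dusp5: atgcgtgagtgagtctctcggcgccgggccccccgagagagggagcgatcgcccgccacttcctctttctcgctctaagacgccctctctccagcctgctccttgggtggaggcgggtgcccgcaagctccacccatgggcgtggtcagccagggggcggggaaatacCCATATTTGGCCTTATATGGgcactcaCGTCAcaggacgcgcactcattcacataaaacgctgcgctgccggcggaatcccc
Npas4: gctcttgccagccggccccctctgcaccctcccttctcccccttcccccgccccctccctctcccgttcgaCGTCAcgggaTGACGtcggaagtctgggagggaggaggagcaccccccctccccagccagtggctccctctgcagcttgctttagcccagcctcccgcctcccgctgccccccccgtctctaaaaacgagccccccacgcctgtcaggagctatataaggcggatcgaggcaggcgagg
Nr4a1: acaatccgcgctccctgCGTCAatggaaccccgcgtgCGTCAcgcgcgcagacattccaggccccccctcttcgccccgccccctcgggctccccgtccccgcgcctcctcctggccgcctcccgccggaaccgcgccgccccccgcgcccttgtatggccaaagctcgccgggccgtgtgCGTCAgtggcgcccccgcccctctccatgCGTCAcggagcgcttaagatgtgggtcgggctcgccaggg
Junb: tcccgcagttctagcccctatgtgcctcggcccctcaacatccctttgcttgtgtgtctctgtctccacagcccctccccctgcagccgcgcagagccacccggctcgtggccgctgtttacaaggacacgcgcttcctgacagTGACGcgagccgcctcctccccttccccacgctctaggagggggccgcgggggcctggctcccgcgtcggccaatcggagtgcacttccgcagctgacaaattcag
These stretches lie at chr12:85473640-85473889 (plus strand) for Fos, chr17:26508473-26508722 (minus strand) for Dusp1, chr19:53528895-53529144 (plus strand) for Dusp5, chr19:4989972-4990221 (minus strand) for Npas4, chr15:101266596-101266845 (plus strand) for Nr4a1 and chr8:84978749-84978998 (minus strand) for Junb.

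The CRE core TGACG was in 26 of the 39 member windows (66.7%), from 20 of the 29 genes, and in 20.8% of all windows. Nr4a1 held 4 copies in the stretch shown and Fos held 2. The whole palindrome TGACGTCA, which holds the core once on each strand, was in 4 member windows (10.3%, against 1.79% of all) and belonged to Btg2, Dusp1, Maff and Plk2. A CArG box was in 5 member windows (12.8%, against 1.63% of all), and these came from 2 genes, Dusp5 with 2 adjacent boxes and Egr2 with overlapping windows at neighbouring start sites. The EGR site GCGNGGGCG was in 9 member windows (23.1%, against 5.55% of all), and the AP-1 site TGANTCA was in 1 (2.56%, against 7.81% of all). Both strands were searched, and these matches describe letters in a window and not bound factors.

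All 38 clusters carried the call of expressed in DU6, and 37 did in FztDU, where Maff was the exception. Values below are log2 signals, so a difference of 1 is a 2-fold change in the deposited signal, and they are given for replicates 1 to 5 in order. A line difference is DU6 minus FztDU, fitted with limma over all clusters and called at an adjusted p under 0.05 with a fold over 2. Of the 38 clusters, 0 passed this rule by limma, against 25 of 22206 clusters (0.113%), and the smallest adjusted p of a member was 0.549 (Ptgs2). The paper, at the same thresholds, reports more genes, and larger folds for some genes, than these signals give. Over all clusters the differences here ran from -3.65 to 2.73. Folds and calls given below thus hold for the deposited signals, and the reason for the gap was not tested. At an unadjusted p under 0.05, 12 members had a lower mean in DU6, where 3.17% of all clusters did so, and 0 had a higher mean, where 2.7% did. The counts per role given below are parts of these 12. The mean was lower in DU6 for 31 of 38 members (49.5% of all clusters; 28 without FztDU replicate 2 and 36 without FztDU replicate 4), and the median difference over the members was -0.28, against 0.002 over all clusters. An exact permutation test over the arrays, two-sided, gave a p under 0.05 for 6 members, and for 5.61% of all clusters. In a whole hippocampus, fewer cells of a type and less RNA per cell cannot be told apart. The count of 12 was 6 without DU6 replicate 4 (2.92% of all clusters in that fit), 6 without DU6 replicate 5 (2.97%), 4 without FztDU replicate 2 (2.85%) and 5 without FztDU replicate 3 (2.73%), and the median difference was -0.17 without FztDU replicate 2.

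**Figure D1:**
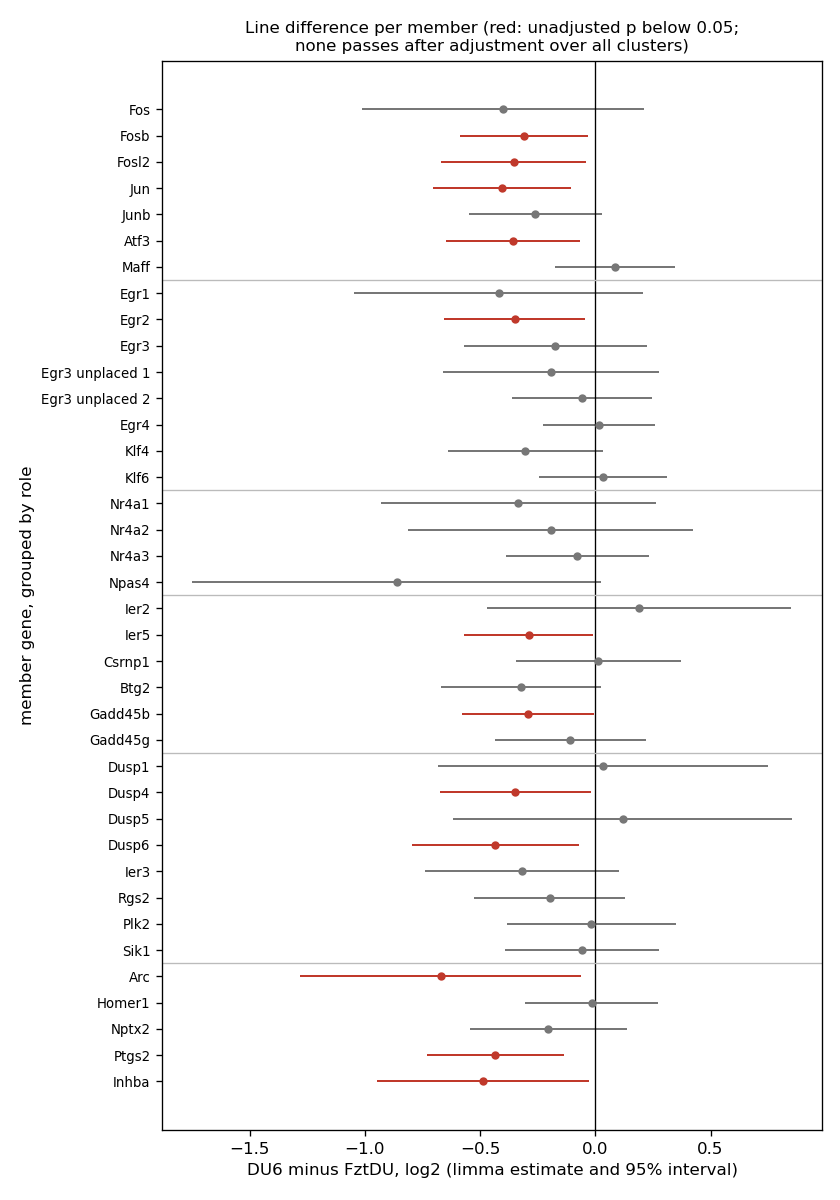
Line difference of each of the 38 clusters on the log2 scale (horizontal axis, DU6 minus FztDU, with the 95% interval of the limma fit), ordered by role. Points in red had an unadjusted p under 0.05 and all 12 of them lie left of 0, while 0 of 38 passed after adjustment.

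Among the AP-1 and other bZIP factors, which pair with each other through leucine zippers, 4 of 7 had a lower mean in DU6 at an unadjusted p under 0.05 and 0 passed after adjustment by limma. Fos (chr12:85473890-85477273, mm10, plus strand), the partner of Jun in AP-1, read 5.39, 6.65, 5.98, 5.19 and 5.45 in DU6 and 5.96, 6.74, 6.25, 5.44 and 6.28 in FztDU. Replicate 2 was the highest mouse in both lines, and the lines overlapped over most of their range. The difference of -0.40 (95% interval -1.01 to 0.21) had an adjusted p of 0.98 by limma. It was -0.63 without DU6 replicate 2, the array with high cerebellar genes, -0.27 without DU6 replicate 4 and -0.25 without FztDU replicate 2.

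Fosb, whose truncated form ΔFosB accumulates after repeated stimulation, read 5.72, 5.63, 6.09, 5.68 and 5.50 in DU6 and 5.90, 6.15, 6.27, 5.81 and 6.03 in FztDU. Fosl2, a slower member of the Fos family, read 6.17, 6.54, 6.35, 6.29 and 5.94 in DU6 and 6.19, 6.84, 6.84, 6.59 and 6.60 in FztDU. For Fosb, 4 of 5 DU6 mice lay below every FztDU mouse, and for Fosl2 2 of 5 did. The differences were -0.31 ± 0.13 (SE, adjusted p = 0.794 by limma) and -0.35 ± 0.15 (adjusted p = 0.788 by limma). Their exact permutation p-values were 0.0556 and 0.0635.

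Jun, which can bind DNA with itself or with a Fos protein, read 7.38, 7.47, 7.84, 7.58 and 7.21 in DU6 and 8.10, 7.59, 8.02, 8.04 and 7.75 in FztDU. DU6 replicate 3 was the only DU6 mouse within the FztDU range. Jun differed by -0.40 ± 0.14 (SE, adjusted p = 0.649 by limma; exact permutation p = 0.0317).

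Junb (chr8:84974484-84978748, mm10, minus strand), a Jun protein with weaker activating power, read 6.96, 6.70, 7.04, 6.83 and 6.86 in DU6 and 7.27, 7.52, 7.14, 6.82 and 6.94 in FztDU. FztDU replicates 1 to 3 lay above every DU6 mouse, and FztDU replicates 4 and 5 lay among them. Its difference was -0.26 (95% interval -0.55 to 0.03, adjusted p = 0.907 by limma), and -0.16 without FztDU replicate 2.

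Atf3, a repressor that is also induced by injury and stress, read 5.62, 5.21, 5.19, 5.63 and 5.64 in DU6 and 5.62, 5.96, 5.72, 6.09 and 5.69 in FztDU. DU6 replicates 2 and 3 lay below all other mice, and the other 3 DU6 mice matched the lower end of FztDU. The difference was -0.36 ± 0.13 (SE, adjusted p = 0.706 by limma; exact permutation p = 0.0317). Maff, a small Maf protein, was the only member of this role with a higher mean in DU6 (0.09, adjusted p = 0.994 by limma), and its signal ran from 2.42 to 3.04 over the 10 arrays.

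**Figure D2:**
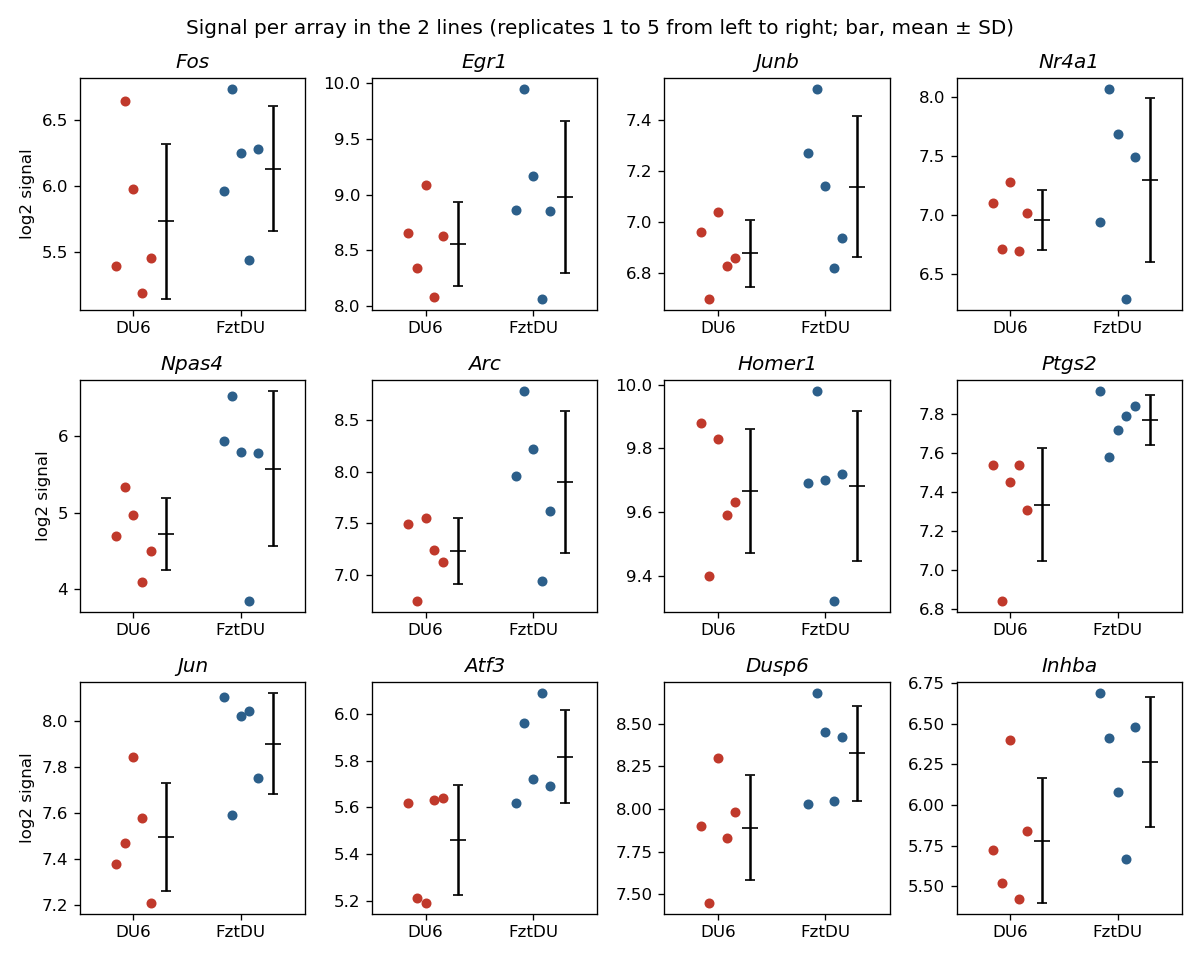
Log2 signal of 12 members in each of the 5 DU6 (red) and 5 FztDU (blue) mice, with the mean and SD of the line as a bar. FztDU replicate 2 is the highest point for Fos, Egr1, Junb, Nr4a1, Npas4, Arc, Homer1 and Dusp6, and the lines stand wholly apart only for Ptgs2.

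The zinc finger factors gave 8 clusters, of which 1 had an unadjusted p under 0.05. Egr1 (chr18:34859823-34864984, mm10, plus strand), an activator needed for lasting synaptic change, read 8.65, 8.34, 9.09, 8.08 and 8.63 in DU6 and 8.86, 9.95, 9.17, 8.06 and 8.85 in FztDU. FztDU held both the highest mouse (replicate 2) and the lowest (replicate 4), with an SD of 0.68 against 0.38 in DU6. The difference of -0.42 (95% interval -1.05 to 0.21) had an adjusted p of 0.98 by limma, and it was -0.18 without FztDU replicate 2 and -0.65 without FztDU replicate 4.

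Egr2, a relative of Egr1 that is also known for its part in myelination, read 5.94, 5.86, 5.79, 5.97 and 5.75 in DU6 and 6.26, 6.47, 6.28, 5.66 and 6.39 in FztDU. Of the FztDU mice, replicate 4 lay below every DU6 mouse and the other 4 above every one. The difference was -0.35 ± 0.14 (SE, adjusted p = 0.778 by limma; exact permutation p = 0.0476), and without FztDU replicate 4 it was -0.49 with an adjusted p of 0.0990.

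The 3 clusters of Egr3 differed by -0.17, -0.19 and -0.06, Egr4 by 0.01, Klf4 by -0.30 and Klf6 by 0.03. Adjusted p-values in this role ran from 0.778 upwards by limma. Egr3 and Egr4 bind the same DNA motif as Egr1, and Klf4 and Klf6 are Krüppel-like factors that respond to growth signals as well as to activity. The difference of the placed Egr3 cluster turned to 0.065 with 4 arrays left out and that of Egr4 was negative in some settings, so neither has a settled direction.

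The Nr4a receptors are orphan nuclear receptors that act without a known ligand, and Npas4 is a factor that answers to calcium entry almost alone. All 4 had a lower mean in DU6 and 0 had an unadjusted p under 0.05 by limma. Nr4a1 (chr15:101266846-101274795, mm10, plus strand) read 7.10, 6.71, 7.28, 6.70 and 7.02 in DU6 and 6.94, 8.07, 7.69, 6.29 and 7.49 in FztDU. FztDU spread over a wider range on both sides, with an SD of 0.69 against 0.25 in DU6, and the difference was -0.33 (95% interval -0.93 to 0.26, adjusted p = 0.983 by limma). It was -0.14 without FztDU replicate 2 and -0.59 without FztDU replicate 4. Nr4a2 and Nr4a3 differed by -0.19 and -0.08.

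Npas4 (chr19:4984355-4989971, mm10, minus strand) had the largest difference of all 38 clusters, with 4.69, 5.34, 4.97, 4.09 and 4.49 in DU6 and 5.94, 6.53, 5.80, 3.84 and 5.78 in FztDU. Of the FztDU mice, 4 lay above every DU6 mouse and replicate 4 lay below every one. The means were 4.72 ± 0.47 and 5.58 ± 1.02 (SD, n = 5 each), a difference of -0.86 or a fold of 0.55. Its 95% interval ran from -1.75 to 0.03, with an adjusted p of 0.867 by limma and an exact permutation p of 0.135. Without FztDU replicate 2, its highest array, the difference was -0.62 and the adjusted p 0.998 by limma. Without FztDU replicate 4 the difference was -1.30 and the adjusted p 0.0648, the smallest of any member in any setting run, and still above the threshold.

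Among the other rapid nuclear and growth-arrest proteins, 2 of 6 had an unadjusted p under 0.05. Ier5, a regulator of heat shock factor activity, read 6.43, 6.32, 6.69, 6.43 and 6.45 in DU6 and 6.75, 7.15, 6.82, 6.48 and 6.57 in FztDU. Gadd45b, which takes part in activity-induced DNA demethylation, read 6.14, 5.88, 5.76, 5.46 and 5.61 in DU6 and 5.87, 6.14, 6.26, 5.98 and 6.06 in FztDU. Ier5 was lower in 4 of 5 DU6 mice than in any FztDU mouse, and Gadd45b in 3 of 5. Both differed by -0.29 with an SE of 0.13 and an adjusted p of 0.842 by limma, and Ier5 differed by -0.19 without FztDU replicate 2. The exact permutation p was 0.0476 for Ier5 and 0.0794 for Gadd45b. Btg2, an inhibitor of proliferation, differed by -0.32 and Gadd45g by -0.11, while Csrnp1 (0.01) and Ier2 (0.19) had higher means in DU6. For Ier2 the mean rested on DU6 replicate 2, at 4.93 against 3.09 to 4.02 in the other 9 arrays, and without it the difference was -0.11.

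The signalling brakes and kinases included 2 of 8 members at an unadjusted p under 0.05, both dual-specificity phosphatases. Dusp4, which acts in the nucleus, read 5.94, 5.69, 6.49, 5.93 and 5.95 in DU6 and 6.51, 6.63, 6.29, 6.15 and 6.16 in FztDU. Dusp6, which acts in the cytoplasm, read 7.90, 7.45, 8.30, 7.83 and 7.98 in DU6 and 8.03, 8.68, 8.45, 8.05 and 8.42 in FztDU. DU6 replicate 3 was the exception in both, and the other 4 DU6 mice lay below every FztDU mouse. The differences were -0.35 ± 0.15 (SE, adjusted p = 0.826 by limma) for Dusp4 and -0.43 ± 0.17 (adjusted p = 0.732 by limma) for Dusp6. Their exact permutation p-values were 0.0635 and 0.0476.

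Dusp1 (chr17:26505590-26508519, mm10, minus strand), a nuclear dual-specificity phosphatase, read 8.09, 9.38, 8.18, 7.41 and 7.91 in DU6 and 7.96, 8.54, 8.50, 7.32 and 8.48 in FztDU. Dusp5 (chr19:53529109-53542431, mm10, plus strand), a nuclear phosphatase of the same family, read 6.14, 8.09, 6.64, 6.49 and 6.32 in DU6 and 6.18, 7.25, 6.87, 6.06 and 6.73 in FztDU. DU6 replicate 2 was the highest mouse for both genes. The differences of 0.03 and 0.12 turned to -0.26 and -0.22 without it, and to -0.18 and -0.021 without FztDU replicate 4, so neither has a settled direction. Ier3 differed by -0.32, Rgs2, a brake on G protein signalling, by -0.20, the kinase Sik1 by -0.06 and Plk2, a kinase that weakens synapses after strong activity, by -0.02 (adjusted p from 0.967 upwards by limma).

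All 5 synaptic and secreted effectors had a lower mean in DU6, 3 of them at an unadjusted p under 0.05. Arc (chr15:74669081-74672570, mm10, minus strand), which drives removal of AMPA receptors from the synapse, read 7.49, 6.75, 7.55, 7.24 and 7.13 in DU6 and 7.96, 8.78, 8.22, 6.94 and 7.62 in FztDU. The DU6 mice lay below FztDU replicates 1, 2, 3 and 5 and 4 of 5 lay above FztDU replicate 4. The means were 7.23 ± 0.32 and 7.90 ± 0.69 (SD, n = 5 each), a difference of -0.67 (95% interval -1.28 to -0.06) and a fold of 0.628. The adjusted p was 0.796 by limma and the exact permutation p was 0.0873. The difference was -0.45 without FztDU replicate 2 and -0.91 without FztDU replicate 4.

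Ptgs2 (chr1:150100124-150108017, mm10, plus strand), the inducible cyclooxygenase that makes prostaglandins in excitatory neurons, read 7.54, 6.84, 7.45, 7.54 and 7.31 in DU6 and 7.92, 7.58, 7.72, 7.79 and 7.84 in FztDU. It was the 1 member of 38 whose lines did not overlap, and 1.22% of all clusters did not. The gap between the lines was narrow, since DU6 replicates 1 and 4 came close to FztDU replicate 2. The difference was -0.43 ± 0.14 (SE, a fold of 0.74), with an adjusted p of 0.549 by limma and an exact permutation p of 0.00794, the smallest that 252 arrangements of 5 against 5 can give.

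Inhba, a subunit of the secreted factor activin A, read 5.72, 5.52, 6.40, 5.42 and 5.84 in DU6 and 6.69, 6.41, 6.08, 5.67 and 6.48 in FztDU. Homer1 (chr13:93303757-93405129, mm10, plus strand), a scaffold of the postsynaptic density with an activity-induced short form that 1 gene-level cluster does not separate, read 9.88, 9.40, 9.83, 9.59 and 9.63 in DU6 and 9.69, 9.98, 9.70, 9.32 and 9.72 in FztDU. DU6 replicate 3 and FztDU replicate 4 crossed over for Inhba, and Homer1 overlapped throughout. Inhba differed by -0.49 ± 0.21 (SE, adjusted p = 0.831 by limma, exact permutation p = 0.0952). Homer1 differed by -0.02 (95% interval -0.30 to 0.27) and Nptx2, a secreted pentraxin that gathers AMPA receptors, by -0.20.

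**Figure D3:**
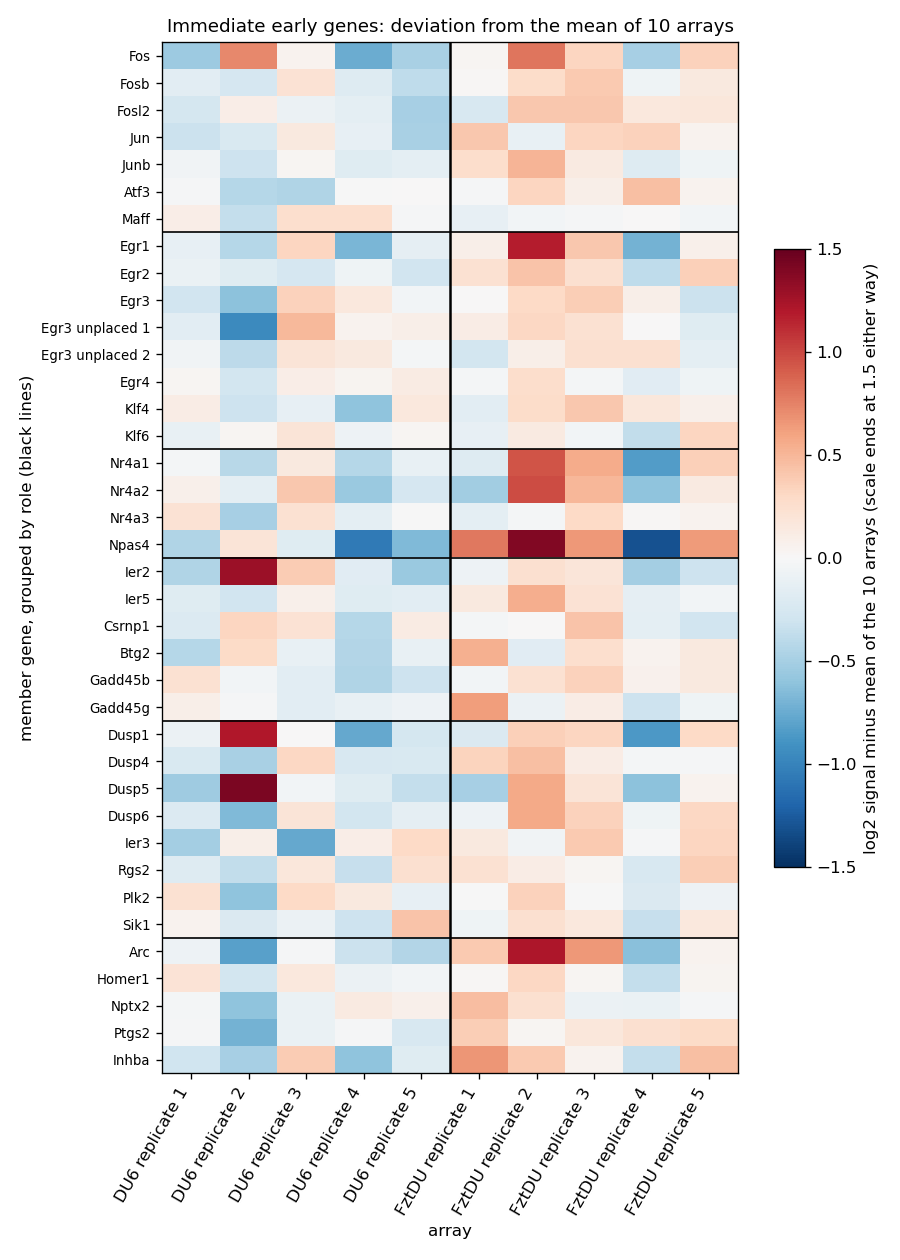
Deviation of each of the 38 clusters (rows, grouped by role) from its mean over the 10 arrays (columns, DU6 left, FztDU right), on the log2 scale. FztDU replicates 2 and 3 are mostly red (above the mean), DU6 replicate 4 and FztDU replicate 4 mostly blue (below it), and DU6 replicate 2 is blue for most members and dark red for Dusp1, Dusp5 and Ier2.

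The members differed among mice of 1 line as well as between the lines. FztDU replicate 2 was the highest array for 15 of 38 clusters and above the 10-array mean for 32, and FztDU replicate 3 was the highest for 8 and above the mean for 33. At the other end, DU6 replicate 2 was the lowest array for 15 clusters and FztDU replicate 4 for 11. The mean deviation over the members was 0.37 in FztDU replicate 2, 0.25 in FztDU replicate 3, -0.22 in FztDU replicate 4 and -0.23 in DU6 replicate 4. Among the DU6 arrays these means ran from -0.23 to 0.07, a narrower range than in FztDU.

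The 7 general hippocampal neuron markers had a mean signal of 10.7, and their list mean stayed within -0.18 to 0.16 of it in every array. Single markers moved apart in DU6 replicate 2. There Neurod6 read 9.44 against 9.91 to 10.44 in the other arrays, and Camk2a 11.98 against 12.26 to 12.44. Snap25 read 12.49 there, against 12.14 to 12.36. The remaining markers lay within the range of the other arrays. Genes of neighbouring tissue stood out in 4 arrays. In DU6 replicate 2 the mean of 12 cerebellar genes (Gabra6, Pcp2 and others) was 3.25 above the mean of all arrays, against -0.62 to 0.01 in the other 9. The mean of 14 choroid plexus genes was 2.22, 2.04 and 1.77 above it in DU6 replicates 1 and 5 and FztDU replicate 5. Thalamic genes (7) were also high, at 1.16 in DU6 replicate 5 and 1.48 in FztDU replicate 5. The mean of 4 blood genes was 1.32 in DU6 replicate 2. Leaving out an array named for choroid plexus or cerebellum therefore takes out more than that tissue. Without these 4 arrays 3 members had an unadjusted p under 0.05 with a lower mean in DU6 (2.45% of all clusters), and without the 3 choroid plexus arrays 4 did (3.01%).

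The list means of hippocampal and cortical neuron markers were compared too, and 0 of 4 had an exact permutation p under 0.05 (neocortex 0.206, dentate granule cells 0.167, CA1 pyramidal cells 0.579 and CA3 pyramidal cells 0.881). The CA1 and CA3 list means differed between the lines by 0.11 and -0.02. The mean of 9 clusters of neocortical markers ran from -0.39 (DU6 replicate 2) to 0.19 in DU6 and from -0.03 to 0.28 (FztDU replicate 2) in FztDU. With this mean as a covariate, added after the data were seen, the median difference of the members was -0.14 and 4 members had a lower mean in DU6 at an unadjusted p under 0.05 (2.37% of all clusters). All 10 dentate granule cell markers had a lower mean in DU6, where 49.5% of all clusters did. Their list mean ran from -0.82 to 0.14 in DU6 and from -0.19 to 0.84 in FztDU. Of the 10, 1 passed (Pdzd2, difference -1.01, adjusted p = 0.00418 by limma), against 0.113% of all clusters. With the dentate mean as a covariate, also added later, the median difference was -0.29. The part of these cells in the line differences was not tested beyond these fits.

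Within a line, did the members go up and down together? The slope of each cluster on Fos was fitted over all 10 arrays with line as a term, so that a slope of 1 means that a gene moved as much as Fos did. Of 37 other member clusters, 2 had a slope that passed at an adjusted p under 0.05 by limma, where 18 of 22205 clusters did (0.0811%). These were Dusp1 (1.11 ± 0.14, SE, adjusted p = 0.0354) and Dusp5 (1.11 ± 0.16, adjusted p = 0.0401). At an unadjusted p under 0.05, 6 members had a positive slope (Dusp1, Dusp5, Ier2, Npas4, Nr4a2 and Egr1), in a fit where 7.31% of all clusters did, and 1 had a negative one (Ptgs2, -0.33 ± 0.11, adjusted p = 0.220), where 8.08% did.

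DU6 replicate 2, the array with the cerebellar genes, stood apart on this axis. Its Fos signal of 6.65 was the highest of DU6, while its Egr1 (8.34), Arc (6.75) and Junb (6.70) were in the lower part of the range. Without that array 18 of 37 members had a positive slope on Fos at an unadjusted p under 0.05, against 4.23% of all clusters. After adjustment by limma 0 members passed (smallest adjusted p = 0.0545), where 3 of 22205 clusters did. These 3 were Syt2, Tshz2 and Vwc2l, all outside the list (adjusted p = 0.0335 each). The 4 members with the smallest p were then Egr1 (slope 1.31 ± 0.17, SE), Nr4a1 (1.21 ± 0.18), Nr4a2 (1.24 ± 0.21) and Npas4 (1.68 ± 0.30), of which Npas4 was the steepest. Dusp1 and Dusp5 had slopes of 0.96 and 0.81 there, with adjusted p-values of 0.221 and 0.327 by limma. The 2 calls were also lost on leaving out any of DU6 replicates 1, 4 and 5 and FztDU replicates 1, 3, 4 and 5, and Dusp1 alone passed without FztDU replicate 2 (adjusted p = 0.0428 by limma). With the replicate number as a block 0 passed as well.

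The 5 genes outside the list with the smallest p on Fos were Syt2 (slope 1.81), Dusp10 (1.03), Rnd1 (0.79), Klhdc8a (0.88) and Itpr1 (0.84), and their adjusted p-values ran from 0.00533 to 0.0354 by limma. Itpr1, the calcium channel abundant in Purkinje cells, read 11.37 in DU6 replicate 2 against 9.49 to 10.41 in the other arrays. Syt2, a synaptotagmin of the hindbrain, read 8.61 there against 5.11 to 6.77, and Dusp10 read 7.93 against 5.73 to 6.74. All 5 genes were highest in that array, which also held the cerebellar genes. Without it Syt2 again had the smallest p of the genes outside the list (slope 1.41 ± 0.16, SE, adjusted p = 0.0335 by limma).

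Egr1 was taken as a second axis. On Egr1, 13 of 37 members had a positive slope at an unadjusted p under 0.05, against 2.4% of all clusters, and 0 had a negative one, against 1.88%. None passed after adjustment by limma (smallest adjusted p = 0.222, Nr4a1). The steepest were Npas4 (1.14 ± 0.27, SE), Nr4a2 (0.89 ± 0.15), Nr4a1 (0.88 ± 0.13) and Arc (0.87 ± 0.15), and the others were Fos (0.57), Inhba (0.47), Dusp6 (0.41), Ier5, Junb, Homer1, Dusp4, Sik1 and Egr4. The number was 15 without DU6 replicate 2 (3.13% of all clusters) and 9 without FztDU replicate 2, the mouse with the highest Egr1 (2.01%). With Junb as the axis it was 12 (2% of all clusters), and with Arc it was also 12 (2.4%).

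**Figure D4:**
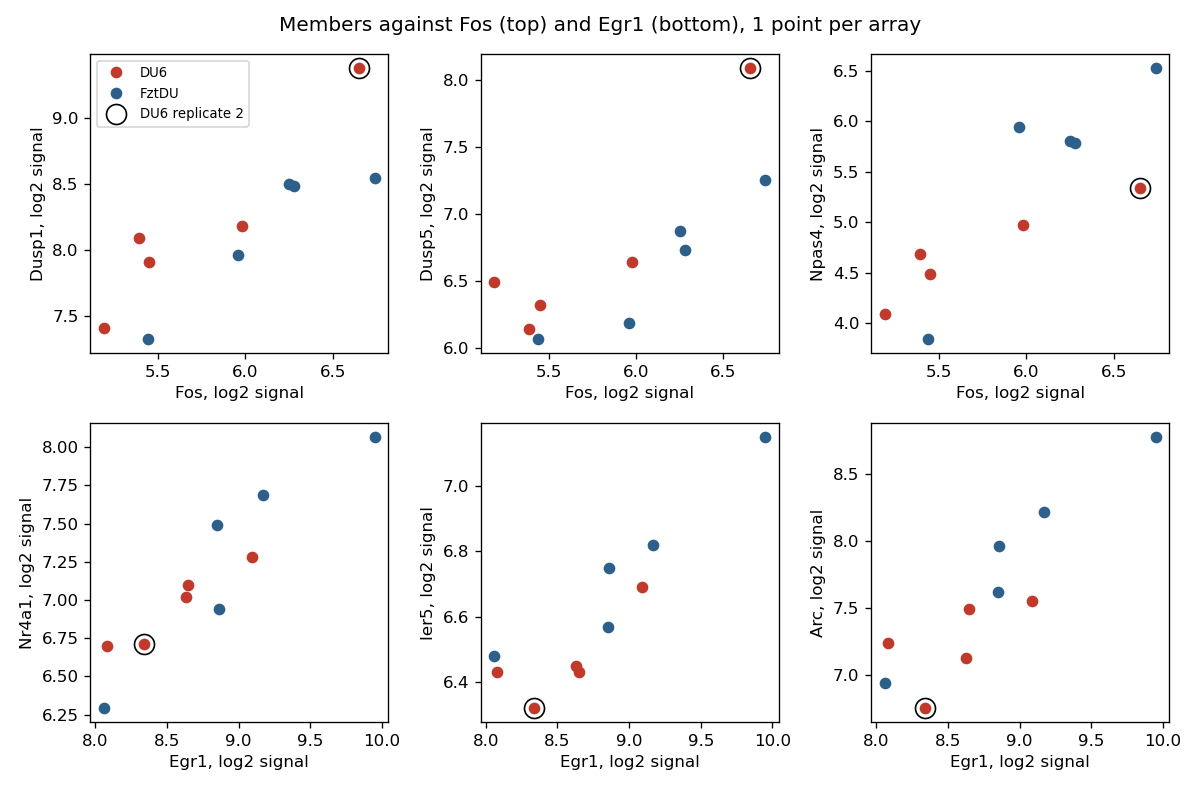
Log2 signal of Dusp1, Dusp5 and Npas4 against Fos (top) and of Nr4a1, Ier5 and Arc against Egr1 (bottom), 1 point per array, DU6 red and FztDU blue, with DU6 replicate 2 circled. The circled array is the highest for Dusp1 and Dusp5 and lies at the low end of the 3 lower panels.

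Correlations over the 10 arrays, after the mean of each line was taken off, were computed on the same values, with DU6 replicate 2 included. With Fos, 35 relations were computed, and 4 had an adjusted permutation p under 0.05 for Pearson's r (14400 arrangements within the lines, exact, Benjamini-Hochberg over the 35). Before adjustment 7 of the 35 had a permutation p under 0.05. No correlation was computed for clusters outside the members. By limma, 7.31% of all clusters had a positive slope on Fos at an unadjusted p under 0.05, and 8.08% had a negative one. Dusp1 had r = 0.939 (permutation p = 0.000278, adjusted 0.00972) and Spearman's rho = 0.915 (permutation p = 0.000625, adjusted 0.0219). Dusp5 had r = 0.914 (permutation p = 0.00111, adjusted 0.0130) and rho = 0.842 (permutation p = 0.0025, adjusted 0.0397). Without the 2 arrays farthest from the median of Fos, DU6 replicate 4 and FztDU replicate 2, r was 0.949 for Dusp1 and 0.937 for Dusp5. These keep DU6 replicate 2, which lay farthest from its line's mean of Fos, and without that array, left out after the data were seen, r was 0.885 for Dusp1 and 0.854 for Dusp5. Without it and FztDU replicate 4, the next farthest, r was 0.764 and 0.765, and no p was computed for these.

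Npas4 had r = 0.827 with Fos (permutation p = 0.000833, adjusted 0.0130) and rho = 0.891 (permutation p = 0.0034, adjusted 0.0397), and Ier2 had r = 0.866 (permutation p = 0.005, adjusted 0.0437) and rho = 0.830 (permutation p = 0.0066, adjusted 0.0577). Without the same 2 arrays r was 0.745 for Npas4 and 0.903 for Ier2, and without DU6 replicate 2 it was 0.881 and 0.738. Egr1, at r = 0.587 with Fos over the 10 arrays (permutation p = 0.0704, adjusted 0.264; rho = 0.491, permutation p = 0.177, adjusted 0.463), was at 0.276 without the 2 arrays and at 0.951 without DU6 replicate 2. Of the 35 relations 25 were positive, with a median r of 0.303. Over all clusters, 10225 of 22205 had a slope above 0 on Fos.

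With Egr1, a second family of 35 relations, 30 were positive with a median r of 0.518. Over all clusters, 10836 of 22205 had a slope above 0 on Egr1. Of the 35, 6 had a permutation p under 0.05 for r after adjustment over the 35. By limma, adjusted over all clusters, 0 slopes on Egr1 passed. At an unadjusted p under 0.05 by limma, 2.4% of all clusters had a positive slope on Egr1 and 1.88% a negative one. Nr4a1 had r = 0.927 (permutation p = 0.00139, adjusted 0.0243) and rho = 0.855 (permutation p = 0.00437, adjusted 0.0408). Nr4a2 had r = 0.901 (permutation p = 0.000764, adjusted 0.0243) and rho = 0.867 (permutation p = 0.00583, adjusted 0.0408), and Ier5 had r = 0.915 (permutation p = 0.00264, adjusted 0.0308) and rho = 0.875 (permutation p = 0.00347, adjusted 0.0408). Arc (r = 0.896), Junb (r = 0.872) and Dusp6 (r = 0.770) were the others, each with an adjusted permutation p of 0.0498, and their rho values were 0.903, 0.867 and 0.782 (adjusted permutation p = 0.0408, 0.0408 and 0.0720). Without FztDU replicates 2 and 4, the arrays farthest from the median of Egr1, r fell to between 0.583 (Junb) and 0.782 (Nr4a2) for these 6 genes and no p was computed.

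The slopes on Fos in each line were set against each other. In FztDU 31 of 37 members had a slope above 0, where 48.1% of all clusters did, and in DU6 14 of 37 did, where 45.2% of all clusters did. For Nr4a1 the slope was 1.43 in FztDU and -0.05 in DU6, and for Arc 1.30 and -0.31. The difference of slopes had an unadjusted p under 0.05 for 12 members (6.45% of all clusters) and an adjusted p under 0.05 for 0 by limma (smallest 0.466), and replicate 2 was the only DU6 mouse with a Fos signal above 6. On Egr1, 30 of 37 members had a slope above 0 in each line (49.1% of all clusters in FztDU and 49.3% in DU6), and 0 differed at an unadjusted p under 0.05 by limma, where 2.3% of all clusters did.

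Genes that marked the highest and lowest Egr1 arrays outside the list were looked at after their values were seen. Tshz2, Rxfp1 and Vwc2l, known from near-projecting neurons of the cortex and subiculum, were among the 5 genes with the smallest p on Egr1 (adjusted p = 0.204, 0.289 and 0.540 by limma). On Fos without DU6 replicate 2, Tshz2 and Vwc2l passed (adjusted p = 0.0335 each by limma). Tshz2 read 7.24, 6.70, 7.90, 6.91 and 6.92 in DU6 and 6.70, 8.84, 7.53, 4.62 and 7.49 in FztDU. FztDU replicate 2 was thus the highest and FztDU replicate 4 the lowest array for Tshz2 as for Egr1. The mean of 7 markers of CA1 pyramidal cells followed a like order in FztDU, at 0.35 in replicate 2 and -0.48 in replicate 4, and the dentate granule cell markers stood at -0.19 and 0.54 in these arrays. In DU6 it did not, with a CA1 mean of 0.33 in replicate 3, the highest of that line for Egr1, and 0.27 in replicate 4, the lowest. The part of these differences in the slopes was not tested.

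The genes that act before the members and others induced beside them were counted in the same way. Of 29 upstream regulators (kinases such as Camk4, and factors such as Creb1 and Srf) 0 passed by limma. At an unadjusted p under 0.05, 2 had a lower mean in DU6, against 3.17% of all clusters, and the median difference of the list was -0.07. Rps6ka2, a ribosomal S6 kinase, differed by -0.46 ± 0.13 (SE, adjusted p = 0.378 by limma), Srf by -0.33 ± 0.15 (adjusted p = 0.842) and Mef2c, a neuronal activity-dependent factor, by -0.38 ± 0.21 (adjusted p = 0.951). Of 31 other activity-induced genes, such as Bdnf and Vgf, 0 passed and 0 had an unadjusted p under 0.05 by limma. The 3 with the smallest p were Spry2 (-0.28), Tiparp (-0.31) and Rgs4 (-0.35), and the median of the list was -0.03.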

How the data were processed

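Log2 signals of 22206 transcript clusters were used as deposited. Per the study's methods, the authors had scanned 1 array per mouse, normalised the signals by SST-RMA in the Transcriptome Analysis Console and annotated them on mm10. The deposited T or F call of expression per line was also read. The deposited table's own averages, fold changes and p-values of the line comparison were not used. Line differences and slopes on Fos or Egr1 were fitted with limma 3.58.1 in R 4.3.3 (two-sided, Benjamini-Hochberg over all clusters), with exact permutation tests over the arrays. Scripts were tested on simulated data. All 36 members were named, with the 3 smallest-p genes of both pathway lists and the 5 outside genes with the smallest p on Fos. The members and lists were chosen with earlier results of these data known. Alternatives were other normalisations, filters on low signal, array weights, a replicate block, left-out arrays and marker covariates. Arrays give no counts, and 5 mice per line limit the precision.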

Additional observations from a re-analysis of the deposited data

Results flagged for a closer look

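Of 76 groups of 5 arrays (38 clusters in 2 lines), 4 had 1 array far from the others by Dixon's criterion, and chance alone gives about 1 in 20 groups. Egr4 was lowest in DU6 replicate 2 at 6.19, where the next value was 6.50. Dusp5 was highest in DU6 replicate 2, the array with the cerebellar genes, at 8.09 against 6.64 for the next. Egr2 was lowest in FztDU replicate 4 at 5.66, with the next at 6.26. Npas4 was lowest in the same mouse at 3.84, with the next at 5.78.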

How the results depend on the processing

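No member passed the adjusted threshold for the line difference in any setting run, and the median difference over the members stayed negative, from -0.31 (array weights) to -0.14 (neocortex mean as a covariate). Members lower in DU6 at an unadjusted p under 0.05 (12) numbered 4 to 14 with 1 array left out. Of all clusters 2.73% to 3.58% did so in these fits. The number was 4 without the 3 choroid plexus arrays (3.01%), 3 without these and the cerebellar array (2.45%), and 4 with the neocortex covariate (2.37%). The number higher (0) was 1 without the 4 arrays and 1 with the choroid plexus and cerebellar covariates. The number that moved with Fos (2) was 0 to 2 with 1 array left out, 1 with array weights, and 0 with quantile normalisation, without the choroid plexus arrays, without the cerebellar array, without all 4, with the choroid plexus and cerebellar covariates, with the dentate covariate, or with Egr1, Junb or Arc as the axis. Positive slopes at an unadjusted p (6) numbered 5 to 18 with 1 array left out, where 4.23% to 8.24% of all clusters had one. They numbered 18 without the cerebellar array (4.23%), 19 without the 4 arrays (4.04%) and 16 with the choroid plexus and cerebellar covariates (4.75%). On Egr1 they numbered 13 (2.4%), and on Junb (2%) or Arc (2.4%) 12. The causes were not tested.

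The labels do not say what the replicate numbers share. Of 5 same-numbered pairs, 3 had deviations correlated above 0.1. The mean r was 0.10 for same-numbered pairs and -0.03 for the others, so whether the numbers pair the mice is not settled. With the replicate number as a block, 11 members were lower (3.42% of all clusters) and 0 higher at an unadjusted p, and 0 passed. The median was -0.28. In that fit 0 moved with Fos at an adjusted p and 2 had a positive slope on Fos at an unadjusted p (5.3% of all clusters).

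Of 867 fits of single members under an alternative, 785 kept their direction and 82 reversed it, over 15 clusters with small differences, and the causes were not tested. The sign turned as follows. With quantile normalisation the difference was -0.023 for Csrnp1. With array weights the differences were -0.083 for Csrnp1, -0.17 for Dusp1, -0.12 for Dusp5 and 0.033 for Plk2. Without the choroid plexus arrays the differences were -0.028 for Csrnp1 and -0.049 for Egr4. Without the cerebellar array the differences were -0.066 for Csrnp1, -0.26 for Dusp1, -0.22 for Dusp5, 0.021 for the first unplaced Egr3 cluster, 0.034 for the second, 0.051 for Homer1, -0.11 for Ier2, 0.035 for Nr4a3 and 0.13 for Plk2. Without all 4 arrays the differences were -0.17 for Csrnp1, -0.28 for Dusp1, -0.025 for Dusp5, 0.065 for the placed Egr3 cluster, 0.10 for the first unplaced Egr3 cluster, 0.095 for the second, 0.037 for Homer1, 0.0075 for Nr4a3 and 0.20 for Plk2. With the choroid plexus and cerebellar covariates the differences were -0.022 for Csrnp1, -0.37 for Dusp1, -0.23 for Dusp5, 0.12 for the placed Egr3 cluster, 0.16 for the first unplaced Egr3 cluster, 0.12 for the second, 0.053 for Homer1, -0.0071 for Klf6, 0.057 for Nr4a3 and 0.20 for Plk2. With the neocortex covariate the differences were -0.022 for Csrnp1, -0.13 for Dusp1, -0.041 for Dusp5, 0.055 for the placed Egr3 cluster, 0.13 for the first unplaced Egr3 cluster, 0.082 for the second, 0.12 for Homer1, 0.090 for Nr4a2, 0.063 for Nr4a3, 0.23 for Plk2 and 0.015 for Sik1. With the dentate covariate the differences were -0.049 for Csrnp1, -0.47 for Dusp1, -0.47 for Dusp5, 0.041 for the first unplaced Egr3 cluster, -0.15 for Ier2, -0.065 for Klf6 and 0.071 for Plk2. With 1 array left out the ranges were -0.066 to 0.12 for Csrnp1, -0.26 to 0.23 for Dusp1, -0.22 to 0.28 for Dusp5, -0.34 to 0.021 for the first unplaced Egr3 cluster, -0.13 to 0.034 for the second, -0.028 to 0.085 for Egr4, -0.20 to 0.034 for Gadd45g, -0.11 to 0.059 for Homer1, -0.11 to 0.35 for Ier2, -0.056 to 0.12 for Klf6, -0.37 to 0.028 for Nr4a2, -0.14 to 0.035 for Nr4a3, -0.095 to 0.13 for Plk2 and -0.17 to 0.013 for Sik1. The neocortex and dentate covariates were chosen after the data were seen. Maff, not called expressed in FztDU, is too near background there for its difference to be read.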
